A study of Mus musculus with 4 samples.

Results

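Of the 4 hippocampus libraries, 2 held choroid plexus transcripts at a high level and 2 at a low level. The sides were set by Ttr alone, the transcript of transthyretin, the carrier of thyroid hormone and retinol that choroid plexus epithelium secretes into the cerebrospinal fluid. The choroid plexus-rich libraries were wild-type 11, with a Ttr level of 41492 scaled read equivalents, and mutant 38, with 70079. The choroid plexus-poor libraries were wild-type 73, with 2562, and mutant 39, with 1749. A scaled read equivalent is the deposited signal of a transcript divided by 42 bases, so that 1 is about 1 read after the authors' scaling. The rich library nearest to the threshold, wild-type 11, stood 16.2-fold above wild-type 73, the higher of the poor libraries. Each side thus holds 1 library of each genotype. The other 23465 of 23466 genes in the table are described here, and 18126 of them passed a filter that asked for 1 read equivalent in any 2 libraries.

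The libraries came from frozen hippocampus of C57BL/6N mice at postnatal day 30. Mutants 38 and 39 are labelled as carrying a conditional allele of Atp6ap2, an accessory subunit of the vacuolar proton pump, together with Camk2a-Cre, a recombinase driven in excitatory neurons of the forebrain. Their titles read ko and their condition field reads conditional het, while wild-types 11 and 73 are labelled wt. The labels name no agent or treatment. Ribosomal RNA was removed from total RNA, and the labels do not say that the samples came from separate animals, so the p-values below measure only the spread between these samples. Before scaling, depth ran from 10023033 read equivalents in wild-type 73, a poor library, to between 17543464 and 18339838 in the other 3. Values are not divided by transcript length, so levels of different genes are not compared.

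The choroid plexus is a folded sheet of ciliated epithelium over a core of stroma and leaky vessels that hangs into the ventricles of the brain. Its epithelium makes cerebrospinal fluid by moving sodium, chloride, bicarbonate and water across the cell, and secretes carrier proteins and growth factors into the fluid. The sheet of the lateral ventricle is attached beside the fimbria of the hippocampus, and that of the third ventricle lies over the thalamus. In bulk RNA, fewer cells of a type and less RNA per cell cannot be told apart. Because Ttr chose the sides in the same libraries in which the other genes were read, the comparison of the sides is a description and no test was run on it. The difference between the sides is given as the log2 ratio of the lowest library of one side to the highest of the other, called the gap, with 1 added to each value.

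Among genes with a mean of at least 20 read equivalents, 112 of 14529 (0.771%) were at least 2-fold higher in the lower rich library than in the higher poor library. Only 4 (0.0275%) were at least 2-fold lower by the same measure. Over all genes past the filter the counts were 257 higher (1.42%) and 51 lower (0.281%). These counts depend on genes with few reads, since a pseudocount of 5 gave 129 and 2. They became 437 and 187 without wild-type 11, 563 and 86 without wild-type 73, and 741 and 164 without mutant 39, and the lower count 190 without mutant 38. The 112 genes took 0.363% of the signal of wild-type 11 and 0.558% of that of mutant 38. They took 0.0756% in wild-type 73 and 0.0792% in mutant 39. Ttr by itself took 0.271%, 0.453%, 0.0164% and 0.0110% in the same order of libraries. Of the 112, 37 differed at least 4-fold and 11 at least 8-fold. The 3 choroid plexus lists hold 36 of them, the list of motile cilia 11, and 63 are in no list.

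The regions upstream of the 3 genes with the widest gap are shown first. Beside them stand the upstream regions of Abca4, a choroid plexus gene with a match to an OTX motif, and of Iqca, a cilia gene with a match to an RFX motif. Each is the 250 bases before the annotated start, read 5′ to 3′ along the gene, from RefSeq on GRCm38.p6, while the deposited values were made on mm9. Capitals mark the motif match, and the first 3 regions hold no match to the motifs searched.
Kcne2, chr16:92292139-92292388, plus strand: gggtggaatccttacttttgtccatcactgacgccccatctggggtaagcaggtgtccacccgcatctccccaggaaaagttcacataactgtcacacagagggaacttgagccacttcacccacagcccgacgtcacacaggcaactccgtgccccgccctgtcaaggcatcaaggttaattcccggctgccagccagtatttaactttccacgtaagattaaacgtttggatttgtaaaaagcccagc
Tmem72, chr6:116716759-116717008, minus strand: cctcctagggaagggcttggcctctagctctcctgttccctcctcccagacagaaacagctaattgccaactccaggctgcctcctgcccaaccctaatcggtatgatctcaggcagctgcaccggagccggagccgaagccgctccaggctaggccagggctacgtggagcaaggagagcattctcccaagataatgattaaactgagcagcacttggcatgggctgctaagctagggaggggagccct
Slc4a5, chr6:83237125-83237374, plus strand: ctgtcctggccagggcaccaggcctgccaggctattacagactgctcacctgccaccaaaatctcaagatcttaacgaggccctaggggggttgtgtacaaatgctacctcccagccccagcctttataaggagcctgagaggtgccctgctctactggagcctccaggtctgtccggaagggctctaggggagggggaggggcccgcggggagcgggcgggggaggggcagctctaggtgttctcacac
Abca4, chr3:122044210-122044459, plus strand: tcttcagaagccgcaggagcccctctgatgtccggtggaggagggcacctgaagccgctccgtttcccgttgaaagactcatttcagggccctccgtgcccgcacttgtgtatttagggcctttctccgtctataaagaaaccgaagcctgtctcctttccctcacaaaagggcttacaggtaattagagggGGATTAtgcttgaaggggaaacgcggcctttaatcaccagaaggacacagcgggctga
Iqca, chr1:90153437-90153686, minus strand: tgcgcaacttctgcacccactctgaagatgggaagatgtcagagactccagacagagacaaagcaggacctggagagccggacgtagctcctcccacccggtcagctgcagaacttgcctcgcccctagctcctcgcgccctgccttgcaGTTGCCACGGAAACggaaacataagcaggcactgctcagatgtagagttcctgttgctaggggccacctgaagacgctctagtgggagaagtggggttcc

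Motifs were searched on both strands, and they were picked after the values were seen. OTX proteins, of which Otx2 is the choroid plexus member, bind TAATCC, and this occurred in 8.82% of 68 windows of the choroid plexus lists. It occurred in 7.27% of 55 windows of the cilia list, in 11.2% of 107 windows of the 112 genes and in 6.25% of all 32851 windows. The X-box, bound by RFX proteins that drive ciliary genes, occurred in 5.45% of the cilia windows, those of Ccdc151, Iqca and Pifo, against 0.374% of all windows. No window of the choroid plexus lists or of the 112 genes held it, and the 3 cilia genes are not among the 112. The forkhead motif TGTTTAC occurred in 1.47% of choroid plexus windows, 7.27% of cilia windows and 3.17% of all windows. RefSeq windows were found for 48 of the 61 choroid plexus genes, 47 of the 57 cilia genes and 76 of the 112. A match is a string of letters and not evidence of binding.

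Ion channels, transporters and other genes of fluid secretion held the 4 widest gaps of single genes, those of Kcne2, Tmem72, Slc4a5 and Aqp1. Of the 27 genes in this list, 25 were higher in both rich libraries than in both poor ones, and 17 were at least 2-fold apart. Over all genes past the filter, 20.6% were higher in both rich libraries and 20% lower. The median difference of the list was 1.68 (log2) in the wild-type pair and 2.22 in the mutant pair, against 0.01 and 0.00 over all genes. Kcne2, a subunit of the apical potassium channel, reached 350.4 (wild-type 11) and 438 (mutant 38) read equivalents on the rich side, against 14.1 (wild-type 73) and 14.4 (mutant 39). Its gap of 4.51 was the widest among the 14529 genes, and the poor libraries were nearly equal.

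Tmem72, a membrane protein, had 391 and 524 in the rich libraries (wild-type 11, then mutant 38, as in the sentences below) and 19.1 and 9.93 in the poor libraries (wild-type 73, then mutant 39). Slc4a5, an electrogenic sodium bicarbonate cotransporter, had 357 and 659 against 26.2 and 18.9. Aqp1, the apical water channel, had 285 and 408 against 21.9 and 10.9. These 3 genes kept mutant 38 highest and mutant 39 lowest. Folr1, the receptor that carries folate into the fluid, had 353 and 545 against 39 and 25.3. Trpv4, an osmosensitive cation channel, had 213 and 295 against 28.1 and 21.6. Kcnj13, an inward rectifier potassium channel, had 366 and 604 against 63.2 and 54.8. Clic6, a chloride channel family member, had 859 and 1587 against 179.8 and 110.9, a wider spread within each side than that of Kcne2. Abca4, a lipid transporter, had 470.3 and 890.0 against 75.9 and 70.2.

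Slc4a2, the basolateral chloride bicarbonate exchanger, was among the genes with the most reads in the set and had a narrower gap of 1.16, with 1239 and 1704 against 520.3 and 554. Slc12a2, the sodium potassium chloride cotransporter of the apical membrane, had 2826 and 4307 against 1741 and 2348, a gap of 0.27. Lrp2, the endocytic receptor megalin, had 99.2 and 99.7 against 77.9 and 69.4. The exceptions in the list were Atp2b3, a plasma membrane calcium pump, and Slc5a5, the iodide transporter, whose rich and poor libraries overlapped. Slco1a5, an organic anion transporter, had 20.9 and 27.0 in the rich libraries, 1.81 in mutant 39 and was listed at 0 in wild-type 73. The gap therefore ran from over 4 on the log2 scale in Kcne2 to none.

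All 16 genes for secreted proteins and hormone receptors were higher in both rich libraries, in several by little, and 10 were at least 2-fold apart. The medians were 1.38 in the wild-type pair and 2.36 in the mutant pair. Enpp2, or autotaxin, which makes lysophosphatidic acid, carried the most signal of the 112 genes, with 25644 and 42349.7 in the rich libraries against 3752 and 4913. Prlr, the prolactin receptor, had 1169 and 2200.5 against 152 and 136. Kl, the anti-ageing coreceptor klotho, had 2474 and 3413 against 489.6 and 590.1. F5, coagulation factor V, had 929 and 1586 against 78.9 and 84.8. The transcript 1500015O10Rik, which encodes the secreted augurin Ecrg4, had 572 and 974 against 45.0 and 64.3. In Enpp2, Kl, F5 and 1500015O10Rik the lowest library was wild-type 73, while in Prlr, as in Ttr, it was mutant 39.

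Among 5 further genes of this list the gap ran from 2.20 in Sostdc1 to near 0 in Stra6. Igf2, an imprinted growth factor of choroid plexus and meninges, had 1700.4 and 2272 against 680.4 and 602, a gap of 1.32. Igfbp2, which binds insulin-like growth factors, had 1082 and 1273 against 457 and 278. Sostdc1, a secreted antagonist of Wnt and bone morphogenetic protein signalling, had 248 and 463 against 46.5 and 53.4. The list members with the least difference were Trf, transferrin, with 6452 and 7056 against 3398 and 6339, and Stra6, a receptor for the retinol binding protein, with 180.0 and 205 against 179.6 and 105. Trf is also made by oligodendrocytes, and its value in wild-type 73 stood well below the other 3.

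Junction proteins, keratins and transcription factors of the epithelium were higher in both rich libraries in 16 of 18 genes, 11 of them at least 2-fold, with medians of 1.93 and 2.66. Cldn2, the claudin that forms a pore for cations and water, had 249 and 353 against 20.3 and 9.03. Cldn1, a sealing claudin, had 217 and 497 against 42.2 and 85.8. Col8a1 and Col8a2, which encode chains of a short-chain collagen, had 309 and 558 against 34.3 and 21.7, and 552 and 779 against 66.1 and 86.1. Otx2, a transcription factor needed for the choroid plexus, had 172 and 308 against 35.6 and 22.9. Lmx1a, a transcription factor of the dorsal midline, had 57 and 81.3 against 7.81 and 9.03. The 2 genes whose libraries overlapped were Cdh1, the epithelial cadherin, with 49.9 and 22.4 against 27.1 and 27.6, and Msx2, a homeobox gene with few reads.

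**Figure D1:**
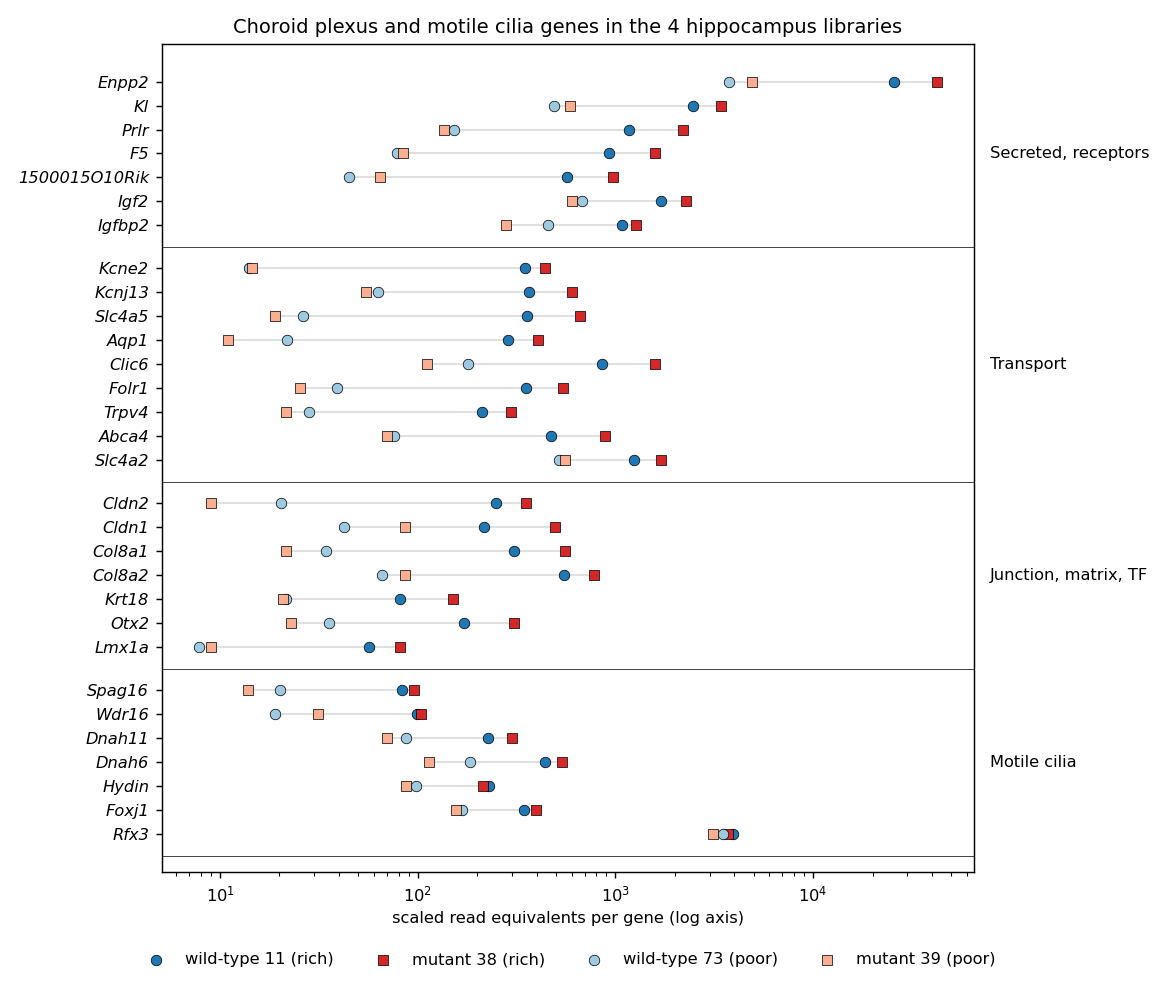
Scaled read equivalents (log axis) of 30 choroid plexus and motile cilia genes in each library, with filled dark symbols for the rich libraries, pale symbols for the poor ones, circles for wild-type and squares for mutant. The genes were picked, and for each the dark symbols lie to the right of the pale ones, from a wide gap in Kcne2 to almost none in Rfx3. Not drawn are the 4 of 61 choroid plexus genes and 15 of 57 cilia genes that overlapped. The 1 cilia gene lower in both rich libraries is not drawn either.

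The 3 lists together held 61 genes past the filter, of which 57 were higher in both rich libraries, none was lower and 4 overlapped. The lists were written with earlier results of these data known, so their counts are no support for the choice of sides. Genes outside any list that shared the split included Ace, angiotensin-converting enzyme, with 805 and 1315 against 235 and 193. Lbp, a binding protein for bacterial lipopolysaccharide, had 307 and 479.6 against 51.2 and 59.8. A2m, a broad protease inhibitor, had 352 and 638 against 100.05 and 117.8. Lepr, the leptin receptor, had 198 and 234 against 54.6 and 67.2. Tmprss11a, a membrane serine protease, had 32.1 and 48.8 against 1.56 and 1.81, and Cdh3, the placental cadherin, had 62.6 and 87.5 against 6.13 and 1.81. Ace, Lbp, A2m and Lepr were chosen after their values were seen. The 112 hold 6 collagen genes, Col8a1, Col8a2, Col9a3, Col4a3, Col4a4 and Col17a1. Mfrp and C1qtnf5, whose transcripts are known to overlap, had the same 4 values and count as 1 measurement.

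The pair of rich libraries did not hold the same amounts. Mutant 38 exceeded wild-type 11 in 56 of the 61 choroid plexus genes, and in 51.7% of all genes past the filter. The median ratio of mutant 38 to wild-type 11 over the 61 genes was 1.42, with a range from 0.449 in Cdh1 to 2.29 in Cldn1, and the ratio of Ttr was 1.69. Among the 38 of them that were at least 2-fold apart, the median ratio was 1.55 and 37 were higher in mutant 38. The order of Ttr, mutant 38 over wild-type 11 over wild-type 73 over mutant 39, was followed by 36 of the 61 genes and by 4.84% of all genes past the filter. Only a gene higher in both rich libraries can follow it. Such genes were 57 of the 61, and 3732 of all 18126, of which 877 followed the order. Because Ttr set the sides, these counts are a description. The poor libraries differed less, with a median ratio of wild-type 73 to mutant 39 of 1.15 over the 61 genes. Once each profile was centred on its mean log2 value, Slc4a5 lay nearest to Ttr, never more than 0.21 away in any of the 4 libraries. Tmem72 and Kcne2 (both 0.30), Aqp1 (0.34) and Cldn2 (0.43) came next.

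**Figure D2:**
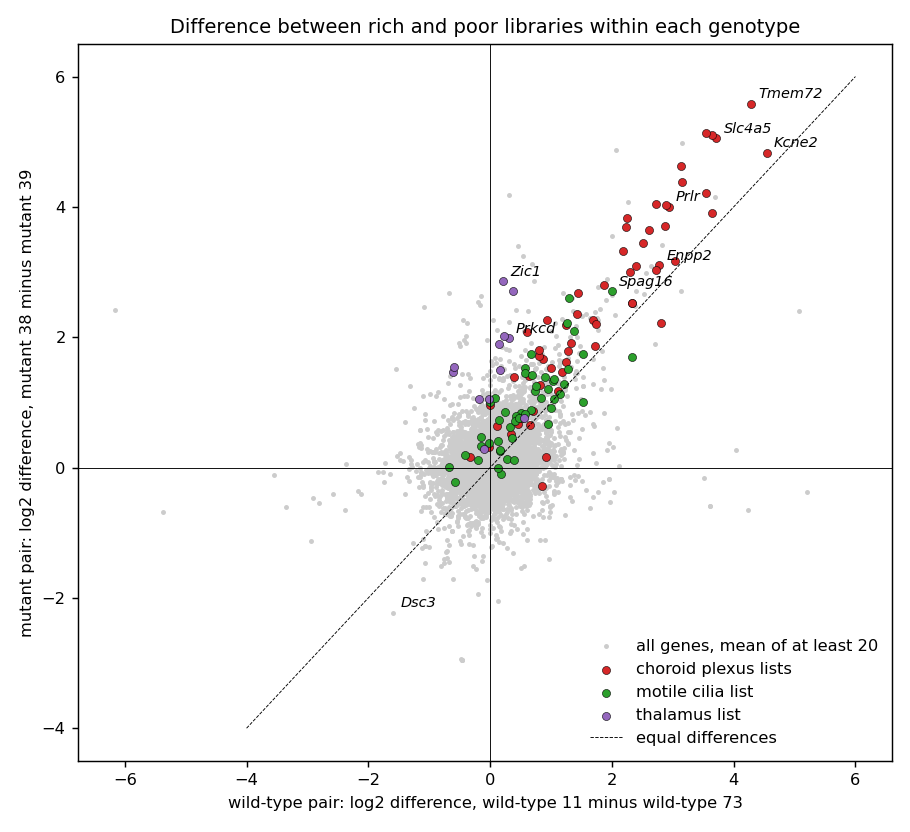
Log2 difference between the rich and the poor library within the wild-type pair (horizontal axis) and within the mutant pair (vertical axis) for genes with a mean of at least 20 read equivalents. Choroid plexus genes (red) mostly run up along and above the dashed line of equal differences, cilia genes (green) lie lower on it, and thalamus genes (purple) stand above 0 mainly on the vertical axis.

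Motile cilia beat on ependymal cells and, in smaller number, on choroid plexus epithelium. Of 57 genes in their list, 41 were higher in both rich libraries, 1 was lower and 15 overlapped, and 11 were at least 2-fold apart. Over all genes past the filter, 20.6% were higher in both rich libraries, 20% were lower and 1.42% were at least 2-fold higher. The medians, 0.52 in the wild-type pair and 0.85 in the mutant pair, were smaller than those of the choroid plexus lists. Foxj1, the transcription factor of motile cilia, had 346 and 396 against 168 and 157. Spag16, of the central apparatus of the axoneme, had the widest gap of the list, with 83.7 and 96.1 against 20.2 and 13.9. Dnah6, a dynein heavy chain, had 440.0 and 536 against 183 and 114. Hydin, another protein of the central apparatus, had 229 and 213 against 97.9 and 87.4. Rfx3, a ciliary transcription factor that other brain cells express too, had 3957 and 3721 against 3519 and 3105, and Iqca had 37.7 and 49.8 against 25.0 and 17.6.

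The cilia genes differed from the choroid plexus genes in the balance of the rich libraries. The median ratio of mutant 38 to wild-type 11 was 1.14 over the 57 genes, with 41 of 57 above 1, and it was 1.14 over the 11 that were at least 2-fold apart, against 1.55 for the choroid plexus genes at least 2-fold apart. Hydin, Dnali1 and Tmem212, with ratios of 0.929, 0.909 and 0.949, had slightly more signal in wild-type 11. With 1 library on each side of this ratio, it has no replicate error, and no test was run. Genes of the list of ventricular wall and ependyma were higher in both rich libraries in 9 of 11, against 20.6% of all genes past the filter. The medians of this list were 0.47 and 0.59. Mia, a secreted protein, had 49.6 and 69.6 against 21.0 and 10.1, and Cd24a, an ependymal surface protein, had 235 and 257 against 169.8 and 171.

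**Figure D3:**
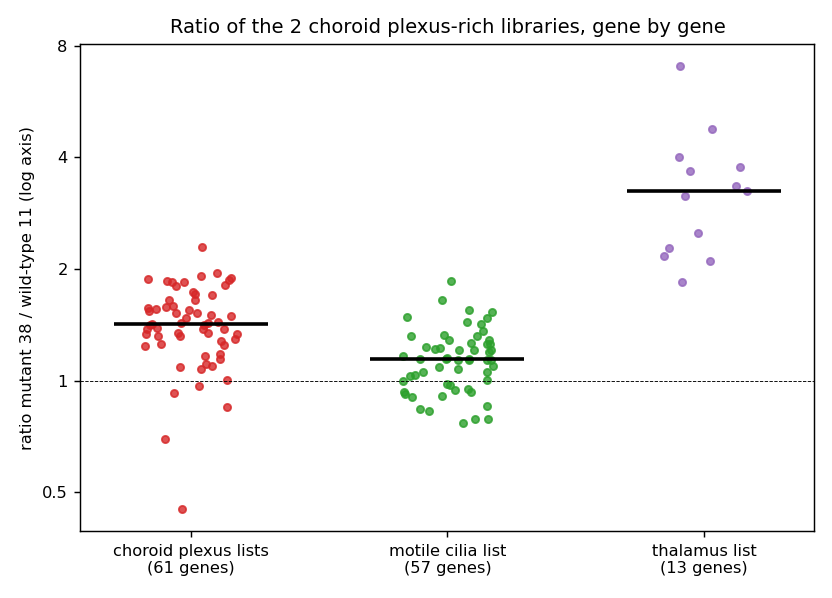
Ratio of mutant 38 to wild-type 11 (log axis), the 2 choroid plexus-rich libraries, with 1 point for each gene of 3 lists and a bar at the median. The medians are 1.42 for choroid plexus, 1.14 for motile cilia and 3.24 for thalamus genes.

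Metal handling and hormone handling followed in part. In the iron and copper list 9 of 14 genes were higher in both rich libraries, against 20.6% of all genes past the filter. Steap1 and Steap2, metalloreductases that the choroid plexus lists also hold, were at least 2-fold apart. Steap1 had 63.0 and 109 against 7.62 and 5.74. Slc31a1, the copper importer, had 425 and 559 against 212 and 194, while Fth1, the ferritin heavy chain, overlapped with 7969 and 8494 against 8281 and 7746. Among genes of retinoid and thyroid hormone handling 8 of 16 were higher in both rich libraries, and the medians were 0.18 and 0.25. Rdh5, a retinol dehydrogenase, had 139 and 199.9 against 72.8 and 40.9. In the list of imprinted growth genes Igf2 and Cdkn1c, a cell cycle inhibitor, were at least 2-fold apart, and 7 of 12 overlapped.

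Stromal and vascular genes differed less than the epithelial genes. None of 24 fibroblast genes was 2-fold apart, although 12 were higher in both rich libraries, with medians of 0.41 and 0.56. Over all genes past the filter, 20.6% were higher in both rich libraries and 20% lower. Only 1.42% were at least 2-fold higher and 0.281% lower, so none of 24 is near the share of all genes. Col1a2, a chain of fibrillar collagen, had 581 and 622 against 359 and 276. Lum, a proteoglycan of collagen fibres, had 116 and 159 against 71.8 and 58.6. Plvap, which forms the diaphragms of fenestrated vessels as in the choroid plexus, overlapped, with 76.3 and 119 against 95.5 and 110.8. Of 15 genes of brain endothelium 3 were higher in both rich libraries, near the share of all genes, 1 was lower and 11 overlapped. The medians of this list were -0.05 and 0.11. Cdh5, the cadherin of endothelium, had 201 and 242 against 165 and 179.6, while Mfsd2a, a lipid transporter of the blood-brain barrier, had 249.5 and 409 against 409 and 413. Mrc1, a receptor of macrophages at the borders of the brain, had 207 and 236 against 138 and 153, and 5 of 13 genes of its list were higher in both rich libraries. None of 9 red blood cell genes separated the sides.

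**Figure D4:**
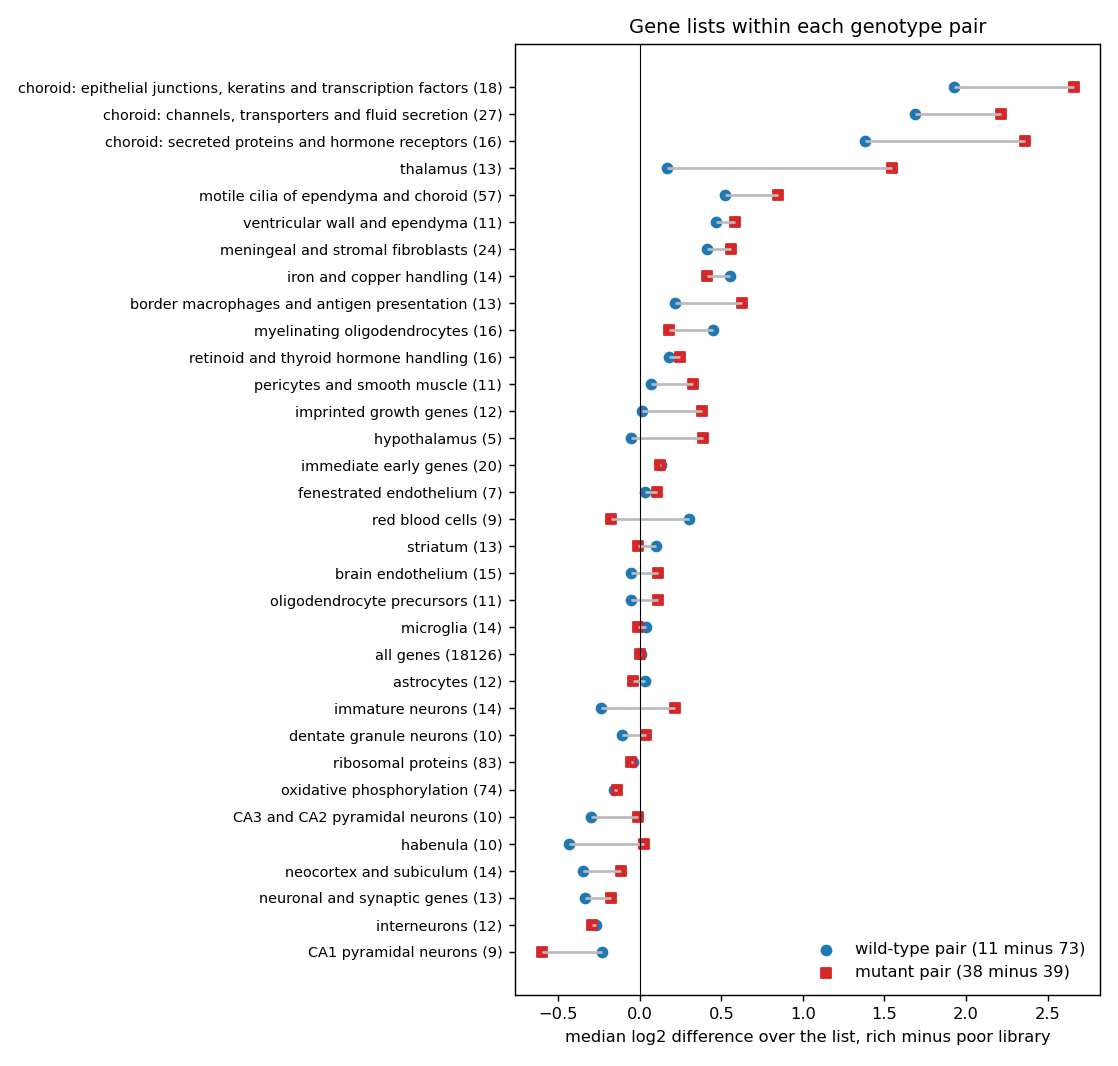
Median log2 difference between the rich and the poor library over each gene list, in the wild-type pair (blue circles) and the mutant pair (red squares), with the number of genes past the filter in brackets. The 3 choroid plexus lists have the largest medians in both pairs, and CA1 pyramidal neurons have the lowest sum of the medians of both pairs.

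Neuronal genes were lower in the rich libraries by small amounts. Of 13 general neuronal and synaptic genes, 11 were lower in both rich libraries and 1 was higher, with medians of -0.34 in the wild-type pair and -0.18 in the mutant pair. Snap25, of the synaptic vesicle fusion complex, had 18064 and 20572 against 23307 and 24273. Rbfox3, which encodes the neuronal marker NeuN, had 1889 and 1804 against 2388 and 2218. In oxidative phosphorylation, 42 of 74 genes were lower in both rich libraries and 1 was higher, with medians of -0.16 and -0.14. Over all genes past the filter, 20% were lower in both rich libraries and 20.6% higher. After each library was rescaled to its total without Ttr, an alternative added after seeing the data, 11 neuronal and 35 oxidative phosphorylation genes were lower. Scaling by the median ratio moved the median of all genes by less than 0.1 (log2).

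Hippocampal identity was present in all 4 libraries, with Mpped1, a gene of CA1 pyramidal neurons, at 2661 and 1979.7 against 3499 and 3157, and Lct, a gene of dentate granule neurons, at 1453 and 1039 against 1599.5 and 1530.1. Of 9 genes of CA1 pyramidal neurons 6 were lower in both rich libraries, with medians of -0.23 and -0.60. Wfs1, an endoplasmic reticulum protein of CA1, had 1631 and 1069 against 1786 and 2885. Interneuron genes were lower in both rich libraries in 6 of 12, among them Cck, a neuropeptide, with 2794 and 2182 against 4013 and 3448. Of 10 dentate granule genes 2 were higher and 2 lower in both rich libraries, near the shares of 20.6% and 20% over all genes.

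The genes with the widest gap in the other direction were few and had few reads. Dsc3, a desmosomal cadherin, had 25.6 and 17.3 against 79.0 and 84.5, a gap of -1.59. C1ql4, a secreted synaptic protein, had 13.7 and 17.4 against 111 and 39.3. Cplx3, a complexin found in subplate neurons of the cortex, had 46.7 and 43.8 against 101 and 94.5. Col24a1, a fibrillar collagen, had 14.2 and 10.1 against 31.8 and 35.2. These 4 were the genes at least 2-fold lower. Vwc2l, a secreted antagonist of bone morphogenetic proteins, had 203 and 202 against 343 and 536. Ntsr1, a neurotensin receptor of deep cortical neurons, had 67.0 and 59.0 against 110.9 and 146. Of 14 genes of neocortex and subiculum 5 were lower in both rich libraries, against 20% of all genes, 1 was higher and 8 overlapped. The medians of this list were -0.35 and -0.12. The widest gaps in the list were in Tshz2 and Tbr1, at 994 and 893 against 1384 and 2010.0 for Tshz2, and at 652 and 623 against 969.9 and 858 for Tbr1.

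Other tissue differences followed the choroid plexus split only in part. Mutant 38 was the highest library in all 13 genes of the thalamus list, against 26.5% of all genes, and at least 2-fold above the next library in 10 of them, against 0.761%. In this list 6 genes were higher in both rich libraries and 0 lower, against 20.6% and 20% of all genes. The gap of Synpo2, the widest among its genes with a mean of at least 20, was 0.23. Prkcd, a protein kinase of thalamic relay neurons, had 1841 in mutant 38 and between 405 and 499 in the other 3 libraries. Zic1, a transcription factor of thalamus and other midline tissue, had 1243 in mutant 38 and 330.4 in wild-type 11. The median difference of the list was 1.55 in the mutant pair and 0.17 in the wild-type pair, so wild-type 11 was rich in choroid plexus genes with thalamus genes near the level of the poor libraries. Wild-type 73 was the lowest library in all 16 myelin genes, against 30.5% of all genes, with Gjb1, a gap junction protein of oligodendrocytes, at 121 against 249 to 270.2 in the others. The part of thalamus, myelin and depth in the differences above was not tested.

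The genotype comparison without a term for the side does not use the rule, since each side holds a mutant and a wild-type, and it was tested with limma. Atp6ap2, the targeted gene, read 2312 (wild-type 11) and 2551 (mutant 38) on the rich side and 2637 (wild-type 73) and 2522 (mutant 39) on the poor side, a log2 difference of 0.04 ± 0.10 (SE, n = 2 each, limma adjusted p = 0.991). The genotypes overlapped, and the labels do not say which part of the gene is deleted, so this whole-transcript value does not check the labels. Mutant and wild-type are therefore the labels' terms throughout. Only Apold1, an immediate early gene of endothelium, passed at 0.05 (0.00552% of 18127 genes). It had 239 and 240.5 in the wild-types and 1565 and 1273 in the mutants, a log2 difference of 2.55 ± 0.14 (limma adjusted p = 0.00569). Without the filter on low values Apold1 did not pass (limma adjusted p = 0.184), while 52 genes were called higher and 10 lower, and without wild-type 11 the calls were 23 higher and 14 lower. At an unadjusted p under 0.05 there were 714 genes (3.94%).

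None of the 61 choroid plexus genes differed between the genotypes at an adjusted p of 0.05, or at an unadjusted p of 0.05. Their median standard error in the limma fit was 0.85 (log2), against 0.18 over all genes, and their median log2 difference was 0.17, with 44 of 61 above 0. Kcne2 differed by 0.18 ± 1.79 and Enpp2 by 0.56 ± 1.12 (SE), intervals too wide to show a difference of 2-fold. The median followed which library was left out. It was 1.36 without mutant 39, 1.05 without wild-type 11, -0.68 without wild-type 73 and -0.997 without mutant 38. In the authors' deposited table, whose p-value column does not say whether it was adjusted, 0 of the 61 genes had a p under 0.05 and the lowest was 0.151, against 389 of 18126 genes in all. The lowest among the 112 genes in the authors' deposited table was 0.182.

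With the side added to the limma fit as a term, 50 genes were higher and 19 lower in the mutants (0.381% of all genes tested), with 1 residual degree of freedom for each gene. The side was chosen by Ttr, so the term removes the choroid plexus difference by construction, and this fit uses the rule. No p-value of a choroid plexus gene from it is given for that reason. The median standard error of the 61 choroid plexus genes became 0.22, against 0.16 over all genes. The log2 differences stayed as they were, at 1.10 in Cldn1, 0.52 in Slc12a2 and 0.56 in Enpp2. Cldn1, Slc12a2 and Enpp2 were also higher in mutant 39 than in wild-type 73, unlike Ttr. They are examples from the 61 genes, over which the median ratio of wild-type 73 to mutant 39 was 1.15. Wild-type 73 was also the lowest library in all 16 myelin genes, and the part of this in the 3 differences was not tested. Over the 61 genes mutant 39 was the lowest library in 39 and wild-type 73 in 21, against 4088 and 5523 of 18126 genes in all. A gene higher in both rich libraries, as 57 of the 61 were, has its lowest value in a poor library by definition. Mutant 38 had more choroid plexus signal than wild-type 11, and the part of these unequal amounts in the genotype differences was not tested.

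All 13 thalamus genes, high in mutant 38, had a higher mean log2 value in the mutants. In the limma fit without the side 0 of 13 passed and 2 had an unadjusted p under 0.05. With the side 2 passed, Slc17a6, a glutamate transporter of synaptic vesicles (1.13 ± 0.13), and Plekhg1 (0.78 ± 0.11). At an unadjusted p under 0.05 there were 9 of 13, against 7.91% of all genes. The fit with the side uses the Ttr rule, and all 13 genes were highest in mutant 38. The counts and the 2 calls are therefore no test of the list or of its genes between the genotypes, and no p-value is given. The part of this tissue in the other genotype calls was not tested.

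None of the 57 cilia genes passed in either limma fit, and none had an unadjusted p under 0.05. Without the side their median standard error was 0.43 (log2), against 0.18 over all genes, and the fit with the side uses the Ttr rule. An absence of a genotype difference is therefore not shown. Foxj1 differed by 0.04 ± 0.47 without and 0.04 ± 0.16 with the side as a term. Of the genes outside these lists, those with the smallest p in the fit with the side were Apold1, Cyr61 and Akap12 among the higher ones. Cyr61, a matricellular protein of the immediate early response, had 166 and 163 in the wild-types and 1242 and 679 in the mutants (limma adjusted p = 0.000132). Akap12, a scaffold of protein kinase A, had 687 and 676 in the wild-types and 2170.4 and 1560.2 in the mutants (limma adjusted p = 0.000438). Dio3, which inactivates thyroid hormone, was lower, with 97.4 and 116 in the wild-types and 12.7 and 9.03 in the mutants (limma adjusted p = 0.00208). Arc, a synaptic immediate early gene, differed by -1.06 ± 0.12 (limma adjusted p = 0.00259). These p-values of Cyr61, Akap12, Dio3 and Arc are from the fit with the side, which uses the Ttr rule. Without the side none of them passed, with a limma adjusted p of 0.123 in Cyr61, Akap12 and Dio3 and 0.149 in Arc.

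**Figure D5:**
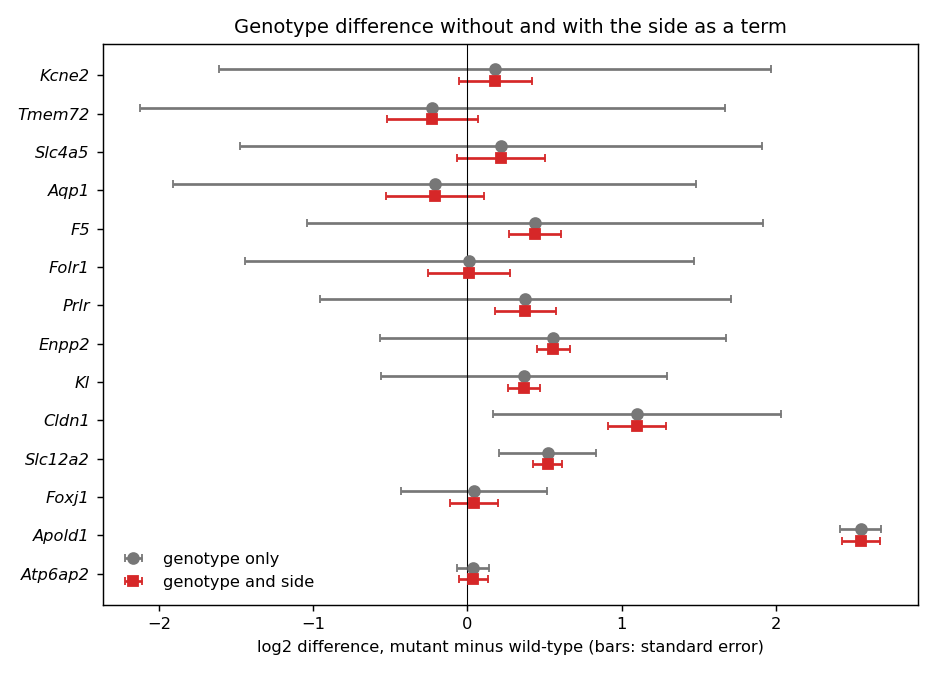
Log2 difference, mutant minus wild-type, with its standard error for 14 genes, from the limma fit with genotype only (grey circles) and with the side as a second term (red squares). The bars of choroid plexus genes such as Kcne2 shrink from 1.79 to 0.24 with the side, while those of Apold1 and Atp6ap2 barely change.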

How the data were processed

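Ribosome-depleted hippocampal RNA of 2 mutant and 2 wild-type samples was sequenced from a single end with strand kept, per the labels' protocols. GSNAP, DESeq2 and the mouse build mm9 are named without versions or roles, per the submitters' processing notes. How reads were assigned to transcripts, with which annotation and strand setting, is not stated in those sources. The authors deposited 31315 transcript records with a signal for each library, aligned bases divided by 1 scaling factor per library, and a p-value from their own comparison. In each library 100% of values were whole multiples of a step, within 0.05 of it.

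Values were divided by 42 bases per read. A gene was represented by its transcript with the highest mean. Genes with at least 1 read equivalent in 2 libraries were kept, and log2(read equivalents + 1) was used, which understates changes of genes with few reads. Rich against poor was described without a test. Mutant against wild-type was tested with limma 3.58.1 in R 4.3.3 (variance trend, two-sided, Benjamini-Hochberg at 0.05), a fit also tested on simulated data. Count tests were not used, because the deposited signal is not counts. Python 3.11.15 and matplotlib 3.10.9 drew the plots.

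The members and all gene lists were chosen with earlier results of these data known. Genes named were set by a rule among those with a mean of at least 20, Ttr left out: the 20 with the widest gap higher in the rich libraries and the 10 lower, the 5 with the most reads among genes at least 2-fold apart, the 5 nearest to Ttr, up to 5 of each list, the markers Kl, Kcne2, Enpp2 and Prlr, Atp6ap2, every gene that passed between genotypes, and up to 5 each way with the side as a term. Not all are reported. Genes outside the rule (Lrp2, Atp2b3, Slc5a5, Slco1a5, Slc12a2, Stra6, Trf, Sostdc1, Igfbp2, Clic6, Otx2, Cldn1, Cdh1, Msx2, Hydin, Foxj1, Rfx3, Iqca, Dnali1, Tmem212, Fth1, Plvap, Slc17a6, Plekhg1, the collagen genes and the motif matches) were chosen after their values were seen, as examples of their lists. Alternatives were another pseudocount, filter, scaling, fold and transcript choice, each library left out and the side as a term.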

Additional observations from a re-analysis of the deposited data

How the results depend on the processing

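Of the genes past the filter, 257 were at least 2-fold higher in the rich libraries and 51 lower. With a pseudocount of 5 these were 129 and 2, with a mean of at least 20 read equivalents 112 and 4, and at 4-fold 60 and 0, since each asks for more. Leaving out each library in turn gave 315 (without mutant 38) to 741 (without mutant 39) higher, with 437 without wild-type 11 and 563 without wild-type 73, and 86 (without wild-type 73) to 190 (without mutant 38) lower, because a single library then stands for a side. Of 432 alternative values for 144 named genes (another pseudocount or scaling), 418 moved by less than the spread and 14 by more. The spread here is the standard deviation of a gene's wild-type pair and mutant pair differences. The sign changed in 0, but a pseudocount keeps the order of the libraries and cannot change it, so only the scaling could have. In the genotype comparison, 1 gene was higher and 0 lower. Without a filter on low values these were 52 and 10, and the adjusted p of Apold1 was 0.184. The cause was not tested. With the side as a term they were 50 and 19, and leaving out each library gave 1 to 23 higher and 0 to 14 lower, the most without wild-type 11. Over its alternatives the adjusted p of Apold1 ran from 2.83e-06 to 0.184. Of the choroid plexus genes 0 passed, and no count is given with the side as a term, which the Ttr rule itself defines. With a library left out, their median log2 difference ran from -0.997 to 1.36. A left-out library leaves 1 sample in a group, which is assumed to vary like the other group. No paired analysis was possible because the genotypes share no replicate numbers. Wild-type 73, with 10023033 read equivalents, limits the genes with few reads.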
